A study of Mus musculus with 40 samples.

Results

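After 6 h of angiotensin II (Ang-II) infusion, aortas in which smooth muscle calcineurin (Cn) had been deleted carried lower mRNA levels than control aortas of 12 of 25 listed immediate early genes, 8 of 21 chaperones and 7 of 26 matricellular and hyaluronan genes, while the other members of these lists did not pass the test as lower. The comparison set the 3 Cn-Ctl libraries at 6 h against the 3 SM-Cn-/- libraries at 6 h, 6 of the 40 libraries in the series, chosen by their labelled genotype and time, and it covered all 14424 protein-coding genes of the table. Of these, 208 (1.44%) passed the test as lower in SM-Cn-/- and 77 (0.534%) as higher. The lists were chosen with earlier results of these data known, so their counts are not independent support.

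The series measured poly(A)-primed mRNA of mouse aorta during Ang-II infusion in a genotype experiment and in a drug experiment, and the 22 libraries of the genotype experiment entered the fit. By their labels all its mice were males with floxed CnB1 (Ppp3r1, the Cn regulatory subunit) that received 1 mg of tamoxifen a day for 5 days, 6 weeks before the infusion of 1 µg/kg/min Ang-II from minipumps. Cn-Ctl mice were labelled negative and SM-Cn-/- mice positive for the inducible recombinase Myh11-CreERT2, which the smooth muscle myosin promoter drives from a transgene on the Y chromosome. The study's methods also name Cre-carrying mice without floxed CnB1 among the controls, which the library labels do not show. Each library pooled 3 aortas (9 aortas per condition) that had been stripped of adventitia and perivascular tissue. Treated Cn-Ctl mice were kept only if their systolic blood pressure was above 130 mmHg, whereas SM-Cn-/- mice were kept whatever their pressure but, by the methods, dropped where CnB1 recombination could not be shown, so the pressure criterion and the genotype cannot be told apart. The other groups used were untreated Cn-Ctl (2 libraries), untreated SM-Cn-/- (3), both genotypes at 2 h (3 each), and Cn-Ctl (2) and SM-Cn-/- (3) at 24 h.

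Cn is a phosphatase of a catalytic and a regulatory subunit that is switched on by calcium and calmodulin, and its best known substrates are the NFAT transcription factors, which enter the nucleus once dephosphorylated. Ang-II acts on smooth muscle through a receptor that raises cytosolic calcium and also engages MAP kinases and RhoA. Immediate early genes are transcribed without new protein synthesis after such stimuli, heat shock genes respond to the factor HSF1, and many cytoskeletal genes respond to serum response factor (SRF), which binds the CArG box.

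The 6 libraries held 2728007 to 7569909 assigned reads, and replicate 3 of each genotype was the shallowest. Values below are the deposited signal, which is on a scale close to RPM, and log2 differences are SM-Cn-/- minus Cn-Ctl on log2(signal + 0.5), so a negative value is lower in the knockout. Smooth muscle identity was present in every library: the 8 smooth muscle markers summed to a signal of 33450 to 35140 in Cn-Ctl and 24100 to 30220 in SM-Cn-/-, none of the 8 passed the test, and Myh11 differed by 0.03. In RNA from whole tissue, fewer cells of a type and less RNA per cell cannot be told apart. None of the 11 marker lists had a member that passed. The 12 endothelial markers summed to 726 to 787 in Cn-Ctl and to 1564, 938 and 772 in SM-Cn-/- replicates 1 to 3.

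Libraries of both genotypes also held liver transcripts at unequal levels. The 18 hepatocyte genes of a list drawn up after the values had been seen summed to 414, 459 and 3272 in Cn-Ctl replicates 1 to 3 and to 141, 3893 and 5502 in SM-Cn-/- replicates 1 to 3, with albumin (Alb) at 116, 131.5 and 984 and at 41.9, 1195 and 1502 in the same order, and none of the 18 passed the test (median log2 difference 0.77). The first principal component of the 6 libraries (44.8% of variance) put Cn-Ctl replicates 1 and 2 and SM-Cn-/- replicate 1 on the side of low liver signal and the other 3 libraries on the opposite side. With the summed hepatocyte signal as a covariate 502 genes passed, all 285 among them. Among the 3 libraries low in liver transcripts 7 genes passed, and among the 3 high ones 355 did, but each of these subsets leaves 1 genotype with a single library, which is assumed to vary like the others. The 7 genes were Stac, Cryab, P3h2, Rgs4, Col15a1, Uty and Eif2s3y. The part of the liver transcripts in the other results was not tested. Differences within the libraries low and high in liver transcripts were unequal for several genes described below, at -2.24 and -5.85 for Fosl1, -3.92 and -2.67 for Sphkap, -1.05 and -3.84 for Dusp5, -0.64 and -2.75 for Thbs1 and -1.34 and -3.82 for Scx. Both subsets gave the sign of the overall difference for these genes, which was fixed beforehand because their libraries did not overlap between genotypes.

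**Figure D1:**
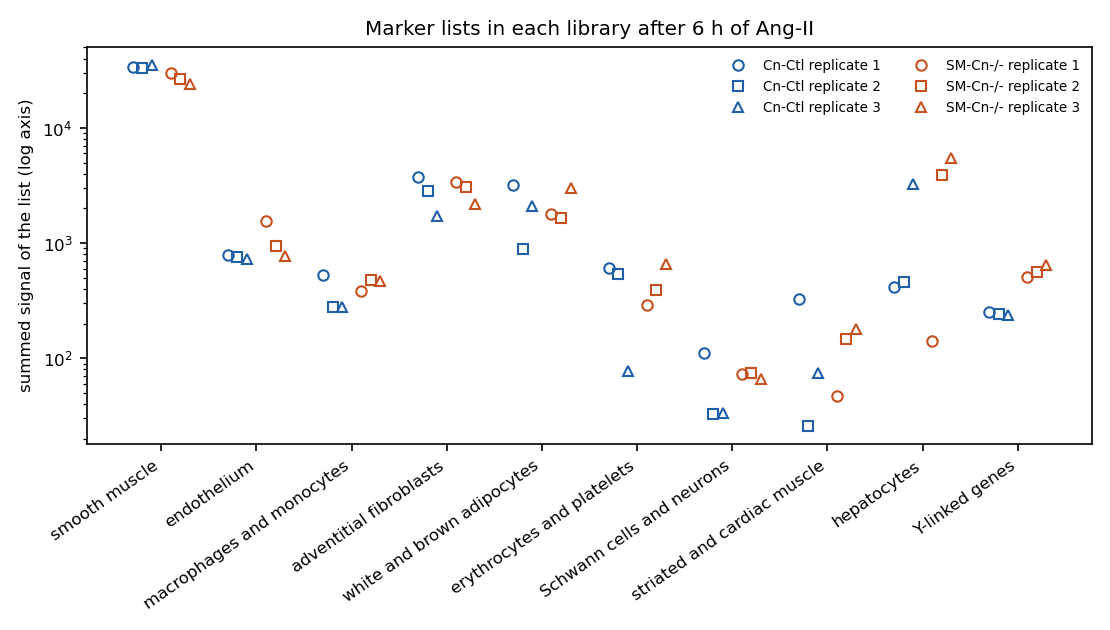
Summed signal of marker lists (log axis) in each of the 6 libraries at 6 h, Cn-Ctl in blue and SM-Cn-/- in orange, with a marker shape for each replicate. Hepatocyte genes were low (141 to 459) in 3 libraries and high (3272 to 5502) in the other 3, both genotypes being on each side, while Y-linked genes split by genotype.

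In all, 285 of 14424 genes (1.98%) passed at an adjusted p under 0.05 in limma, 1.44% as lower and 0.534% as higher in SM-Cn-/-, so that 73% of the differences were lower levels in the knockout. Calls in the gene lists below are to be read beside the shares of 1.44% and 0.534%. Their median absolute log2 difference was 1.12, against a median standard error of 0.324 over all genes, and 172 genes (1.19%) also exceeded a 2-fold difference. The 3 libraries of each genotype did not overlap for 284 of the 285 genes, Pde3a being the exception, where 14.4% of all genes tested had no overlap (7.74% with all SM-Cn-/- libraries below and 6.63% with all above). Lack of overlap in a gene that passed therefore adds no separate support. It was also a condition for naming the genes with the largest differences and the smallest p. The count depended on single libraries: it was 119 without SM-Cn-/- replicate 3, 130 without SM-Cn-/- replicate 2, 129 without Cn-Ctl replicate 2 and 523 without SM-Cn-/- replicate 1.

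**Figure D2:**
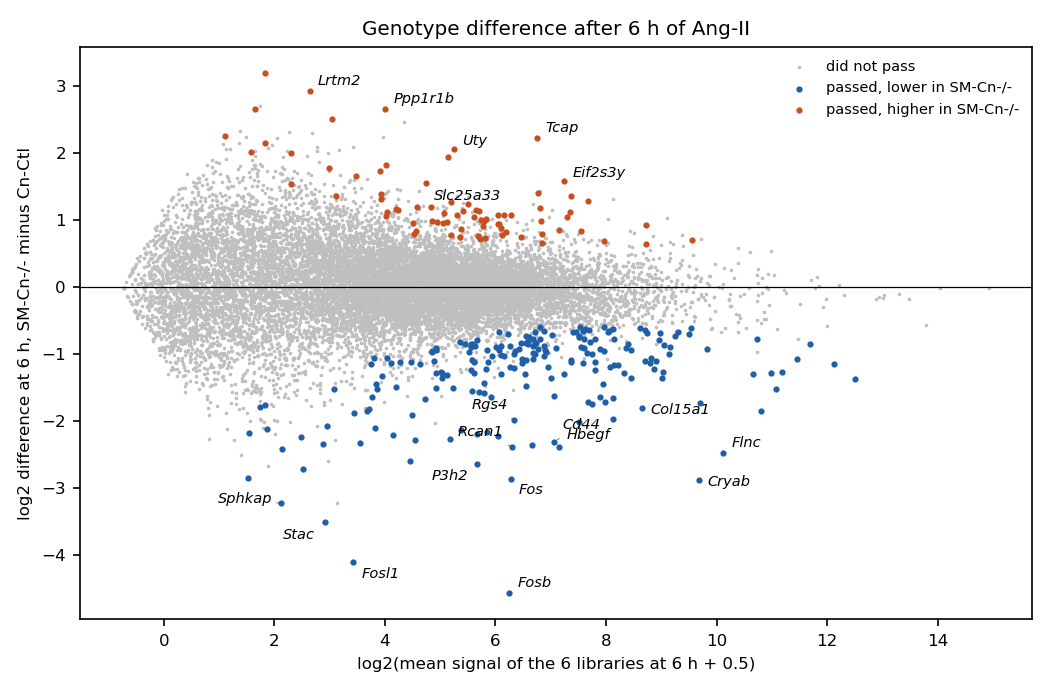
Genotype difference at 6 h for each gene (vertical axis, log2 SM-Cn-/- minus Cn-Ctl) against its mean signal over the 6 libraries (horizontal axis, log2). Genes that passed are blue where lower and orange where higher in SM-Cn-/-. Fosb, Fosl1 and Stac had the largest negative differences among labelled genes, and Cryab and Flnc combined a large difference with a high signal.

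The targeted gene did not separate the genotypes at the level of whole-gene signal. Ppp3r1 measured 98.2, 116 and 48.1 in Cn-Ctl and 82.5, 41.8 and 45.3 in SM-Cn-/-. The groups overlapped, the 2 upper Cn-Ctl libraries standing above the rest. The difference was -0.60 (SE 0.33, adjusted p = 0.429 in limma), within -0.98 and -0.35 as each library was left out. It was smaller among the libraries low (-0.37) and among those high (-0.14) in liver transcripts, and -0.40 with the hepatocyte signal as a covariate. The part of the liver transcripts in it was not tested. The signal is summed over the gene and does not resolve the floxed segment, and Wdr92 overlaps Ppp3r1 on the same strand. The catalytic subunits also showed no difference past the test, Ppp3ca at 0.09 (adjusted p = 0.85), Ppp3cb at -0.34 (0.529) and Ppp3cc at 0.39 (0.666).

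Rcan1, a Cn inhibitor that is itself a classical Cn-NFAT target, was 5.24-fold lower in SM-Cn-/-. It measured 85.0, 128 and 179 in Cn-Ctl and 35.2, 28.6 and 12.7 in SM-Cn-/-. Every Cn-Ctl library stood above every knockout library. The log2 difference was -2.39 (SE 0.33, adjusted p = 0.000202 in limma), and it was -1.55 among the libraries low and -3.20 among those high in liver transcripts. The signal is summed over the gene and does not resolve transcripts from its different promoters. Rcan1 lies on chromosome 16 (92391953 to 92470867, minus strand, GRCm38), and its internal promoter, the start of the transcript known to respond to NFAT, is shown because it carries 3 copies of the NFAT core GGAAA within 300 bases. It is read 5′ to 3′ in the direction of transcription from the RefSeq sequence table (GRCm38.p6, chr16:92400029-92400328, minus strand, 250 bases before to 50 after the start), with the core in capitals on either strand (TTTCC is the core on the other strand).
Rcan1 internal promoter: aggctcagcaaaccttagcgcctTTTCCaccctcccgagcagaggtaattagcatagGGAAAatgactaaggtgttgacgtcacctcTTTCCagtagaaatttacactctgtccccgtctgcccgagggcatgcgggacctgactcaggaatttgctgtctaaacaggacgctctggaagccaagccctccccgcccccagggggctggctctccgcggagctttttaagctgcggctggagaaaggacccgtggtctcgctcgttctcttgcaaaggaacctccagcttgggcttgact

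The core is short and common. Promoter sequences were at hand for 150 of the 208 genes lower in SM-Cn-/-, 57 of the 77 higher ones and 11156 of all genes tested, and GGAAA occurred on either strand in 66% of the first, 70.2% of the second and 63.8% of the third. Among the 19 regulators of Cn and NFAT factors, Rcan1 and Calm2, which encodes calmodulin, passed as lower, none passed as higher, and the list median was -0.13, beside -0.005 over all genes. Calm2 did not pass without SM-Cn-/- replicate 3 or without Cn-Ctl replicate 2 (highest adjusted p 0.092 in limma). The NFAT factor Nfatc1 differed by 0.12 (adjusted p = 0.886) and the related inhibitor Rcan2 by -0.12 (adjusted p = 0.873).

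Immediate early factors were the list with the largest number of genes lower in SM-Cn-/-. Of 25 measured members 12 passed as lower and none as higher, beside 1.44% and 0.534% of all genes, and the list median was -0.95. The 12 were Fosb, Fosl1, Fos and Jun, which form the AP-1 dimers, the bZIP factor Atf3, the orphan nuclear receptors Nr4a1 and Nr4a3, the zinc finger factors Egr1, Klf2 and Klf6, the synaptic early gene Arc and the antiproliferative gene Btg2.

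Fosb measured 80.4, 146 and 208 in Cn-Ctl and 10.5, 3.23 and 3.99 in SM-Cn-/-. The lowest control library was above the highest knockout library by a wide margin. Its difference of -4.57 (SE 0.48, adjusted p = 7.5e-06 in limma) was the most negative of all genes named here, at -3.31 among the libraries low in liver transcripts and -5.67 among the high ones. Fosl1 measured 7.36, 16.5 and 35.3 in Cn-Ctl, and 1.94 in SM-Cn-/- replicate 1 with no read in the other two (difference -4.10, adjusted p = 0.00451). Fos measured 166, 170 and 74.1 against 19.6, 14.4 and 17.5 (difference -2.87, adjusted p = 0.000574), with no overlap although Cn-Ctl replicate 3 was well under the other controls.

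Atf3 measured 120, 189.6 and 199.8 in Cn-Ctl and 40.6, 35.6 and 22 in SM-Cn-/- (difference -2.37, SE 0.28, adjusted p = 4.36e-05 in limma). Nr4a3 measured 78.3, 100.3 and 71.9 against 18.3, 19.4 and 15.4 (difference -2.20, adjusted p = 6.78e-05). Neither gene overlapped between the genotypes, and the libraries of each group were closer together for Nr4a3 than for Atf3. Egr1 measured 308, 405 and 215 against 154, 82.5 and 57.8 (difference -1.72, adjusted p = 0.0203), a smaller gap in which the highest knockout library came close to the lowest control. The remaining members that passed lay between -2.60 (Arc) and -0.86 (Klf6). Myc, at -1.73, did not pass (adjusted p = 0.0735), nor did Klf4 at -0.29, Junb at -0.48 or Jund at 0.03.

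The calls of Fosb, Fosl1, Fos, Atf3, Nr4a3 and Jun held with each library left out in turn. The other 6 were lost in at least 1 omission, their highest adjusted p in limma ranging from 0.0679 to 0.181. These were 6 without SM-Cn-/- replicate 3, 5 without Cn-Ctl replicate 2, and 4 each without SM-Cn-/- replicate 2, Cn-Ctl replicate 1 and Cn-Ctl replicate 3. Fosl1 overlaps Ccdc85b, and Jun an antisense transcript, on the opposite strand.

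**Figure D3:**
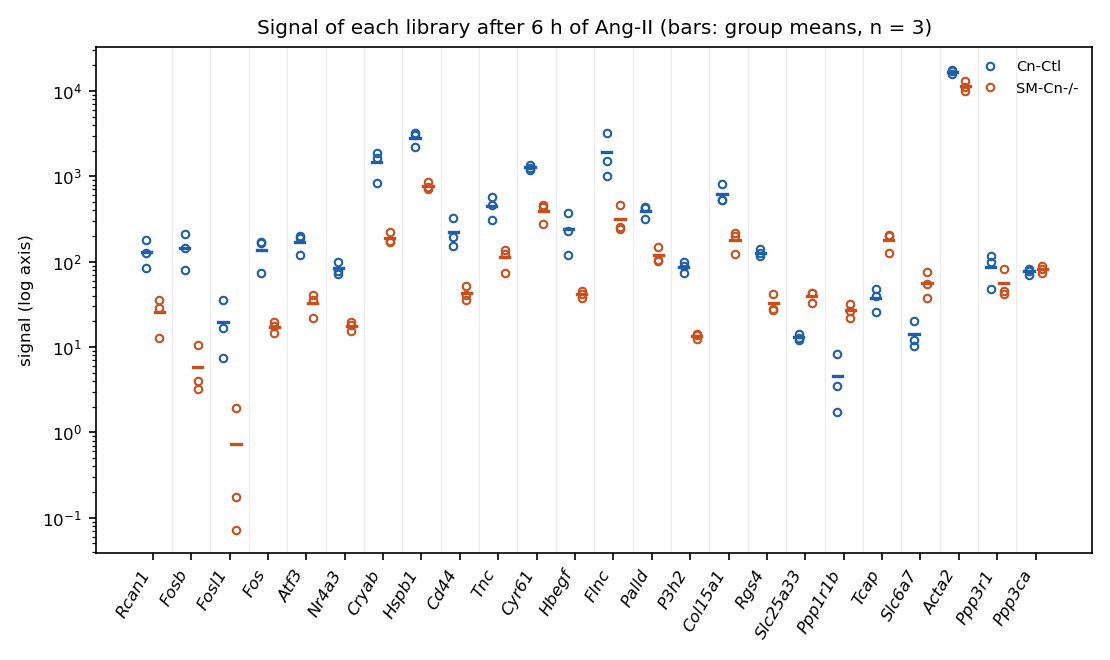
Signal of 24 genes (log axis) in each of the 3 Cn-Ctl (blue) and 3 SM-Cn-/- (orange) libraries at 6 h, with bars at the group means. From Rcan1 to Rgs4 all knockout points lay below all control points, from Slc25a33 to Slc6a7 all lay above, and for the Cn subunits Ppp3r1 and Ppp3ca they overlapped.

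Of 21 heat shock proteins and cochaperones 8 passed as lower and none as higher, and the list median of -1.05 was the lowest of the pathway lists. Cryab, a small heat shock protein that protects desmin and actin filaments, measured 835, 1658 and 1876 in Cn-Ctl and 222, 168 and 173 in SM-Cn-/-. The groups were far apart, the controls having the wider spread. Cryab differed by -2.88 (SE 0.28, adjusted p = 7.5e-06 in limma), by -2.40 among the libraries low and -3.46 among those high in liver transcripts. Its small heat shock relative Hspb1, an actin-binding chaperone, measured 2206, 3010 and 3211 against 748, 854 and 711 (difference -1.85, SE 0.31, adjusted p = 0.00199).

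The DNAJ cochaperone Dnaja4 measured 79.4, 76.3 and 84.5 in Cn-Ctl and 32.0, 31.3 and 24.8 in SM-Cn-/- (difference -1.44, adjusted p = 0.000153 in limma), and the HSP110 relative Hspa4l measured 96.2, 99.5 and 51.9 against 34.9, 31.3 and 16.1 (difference -1.59, adjusted p = 0.00315). Hspa4l was lowest in replicate 3 of each genotype, yet the groups did not overlap. The cytosolic chaperones Hsp90aa1 (-1.30), Hspa8, the constitutive HSC70 (-1.15), and Hsp90ab1 (-0.78) were also lower, as was the mitochondrial cochaperonin Hspe1 (-1.10). The heat-inducible Hsp70 genes differed by -1.15 (Hspa1a, adjusted p = 0.255) and -1.05 (Hspa1b, adjusted p = 0.238) and did not pass. Hspa1a and Hspa1b are near-identical copies whose reads may be split between them.

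Without SM-Cn-/- replicate 3 the calls of Hspa8, Hspe1 and Hsp90ab1 were lost, without SM-Cn-/- replicate 2 those of Hspa8 and Hsp90ab1, without Cn-Ctl replicate 2 those of Hspe1 and Hsp90ab1, without Cn-Ctl replicate 1 that of Hsp90ab1 and without Cn-Ctl replicate 3 that of Hspa8 (highest adjusted p 0.0959 to 0.223 in limma). Cryab overlaps Hspb2, Dnaja4 overlaps Wdr61 and Hspe1 overlaps Hspd1 on the opposite strand. HSF1 binds inverted repeats such as GAANNTTC, where N is any base. This palindrome occurred in the promoters of 13.3% of the genes lower in SM-Cn-/- that had a sequence, 8.77% of the higher ones and 7.22% of all genes tested, a description without a test. The promoters of Hspb1 (GRCm38.p6, chr5:135887669-135887968, plus strand) and the second of Dnaja4 (GRCm38.p6, chr9:54699309-54699608, plus strand) are shown because each holds 2 copies, in capitals.
Hspb1 promoter: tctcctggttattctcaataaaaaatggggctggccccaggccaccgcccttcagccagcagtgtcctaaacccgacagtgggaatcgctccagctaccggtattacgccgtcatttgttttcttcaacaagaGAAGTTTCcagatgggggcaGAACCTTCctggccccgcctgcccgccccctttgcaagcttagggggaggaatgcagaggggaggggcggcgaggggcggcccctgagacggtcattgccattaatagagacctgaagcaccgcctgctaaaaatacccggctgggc
Dnaja4 second promoter: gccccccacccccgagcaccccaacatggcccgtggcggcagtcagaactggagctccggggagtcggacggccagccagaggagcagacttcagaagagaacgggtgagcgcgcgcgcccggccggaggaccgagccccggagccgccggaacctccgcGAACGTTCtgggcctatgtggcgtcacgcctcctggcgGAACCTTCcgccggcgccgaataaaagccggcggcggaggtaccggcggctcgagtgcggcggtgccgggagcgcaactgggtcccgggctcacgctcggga

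Of 26 matricellular and hyaluronan genes 7 passed as lower and none as higher, and the list median was -0.70. Cd44, the hyaluronan receptor, measured 152, 192 and 326 in Cn-Ctl and 51.2, 40.9 and 35.9 in SM-Cn-/-. All controls were above all knockouts, and Cn-Ctl replicate 3 was the highest. The difference was -2.31 (SE 0.27, adjusted p = 3.03e-05 in limma), with -1.73 and -3.07 among the libraries low and high in liver transcripts. Tnc, which encodes the injury-induced matrix protein tenascin-C, measured 308.5, 455 and 564 against 138, 124 and 74.4 (difference -1.98, adjusted p = 9.48e-05). Cyr61 (CCN1), a target of YAP and SRF, measured 1368, 1255 and 1179 against 431, 459.5 and 279 (difference -1.73, adjusted p = 0.000248), with tight controls. The related Ctgf (CCN2) was lower at -1.38, as were periostin (Postn) at -1.27, thrombospondin 1 (Thbs1) at -1.64 and the hyaluronan-modifying Tnfaip6 at -1.83.

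Ctgf, Thbs1 and Tnfaip6 did not pass in every omission (highest adjusted p 0.116 to 0.233 in limma), the losses being 3 without SM-Cn-/- replicate 2, 3 without SM-Cn-/- replicate 3, 3 without Cn-Ctl replicate 3, 2 without Cn-Ctl replicate 2, and Ctgf also without replicate 1 of either genotype. The Cd44 promoter (GRCm38.p6, chr2:102901616-102901915, minus strand, printed in the direction of transcription) is shown as an example of a matrix gene with a large difference and 2 GGAAA cores, in capitals.
Cd44 promoter: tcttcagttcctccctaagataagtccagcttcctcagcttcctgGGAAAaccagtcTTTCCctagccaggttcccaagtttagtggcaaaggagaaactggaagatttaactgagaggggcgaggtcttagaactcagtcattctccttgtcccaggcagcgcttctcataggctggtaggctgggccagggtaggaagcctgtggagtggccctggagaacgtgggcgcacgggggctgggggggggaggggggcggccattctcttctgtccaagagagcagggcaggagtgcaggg

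Of 21 collagen chains 3 passed as lower, Col15a1, Col6a3 and Col5a1, with a list median of -0.17. Col15a1, a basement membrane collagen, measured 521, 813 and 534 in Cn-Ctl and 216, 199 and 122 in SM-Cn-/-. The groups were far apart, and the difference of -1.81 (SE 0.19, adjusted p = 7.5e-06 in limma) passed under every omission, whereas Col6a3 (-0.91) was lost without SM-Cn-/- replicate 3 and Col5a1 (-0.59) without SM-Cn-/- replicate 2 or 3 or Cn-Ctl replicate 2 or 3 (highest adjusted p 0.0754 and 0.186). P3h2, a prolyl hydroxylase that modifies basement membrane collagen, had the smallest p of all genes: 73.5, 98.9 and 89.2 against 14.2, 14.0 and 12.3 (difference -2.64, SE 0.21, adjusted p = 2.07e-07), with near-equal values within the knockout and -2.54 and -2.72 in the libraries low and high in liver transcripts.

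Of 25 elastic fibre and crosslinking genes 5 were lower and 1 higher, around a list median of -0.05. Lysyl oxidase (Lox), which crosslinks elastin and collagen, measured 411.5, 550.5 and 309 in Cn-Ctl and 173, 135 and 94.9 in SM-Cn-/- (difference -1.66, adjusted p = 0.00255 in limma). Transglutaminase 2 (Tgm2) differed by -1.53 (adjusted p = 0.00475), the prolyl hydroxylase subunit P4ha1 by -0.89, Loxl2 by -0.67 and the latent TGF-beta binding protein Ltbp1 by -0.61. The microfibril protein Mfap5 was higher, at 367, 283 and 231 in Cn-Ctl and 535, 554 and 552 in SM-Cn-/- (difference 0.92, adjusted p = 0.0221). In this group only Lox and Tgm2 passed under every omission of 1 library, P4ha1, Loxl2, Ltbp1 and Mfap5 each being lost without SM-Cn-/- replicate 2, SM-Cn-/- replicate 3 or Cn-Ctl replicate 2, and some of them without Cn-Ctl replicate 1 or 3 (highest adjusted p 0.095 to 0.226). Of 26 matrix proteases and inhibitors the plasminogen activators Plau (-2.29) and Plat (-1.56) and the protease Adamts9 (-0.96) were lower, Adamts9 being lost without Cn-Ctl replicate 1 or 2 or SM-Cn-/- replicate 2 or 3 (highest adjusted p 0.117).

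Among 30 TGF-beta, BMP, Smad and Id genes the 3 that passed were ligands, all lower. Tgfb2 measured 243, 183 and 219.9 in Cn-Ctl and 99.4, 86.5 and 74.1 in SM-Cn-/- (difference -1.31, SE 0.17, adjusted p = 0.000161 in limma). Tgfb3 measured 383, 344 and 648 against 198, 204 and 143.5 (difference -1.29), and the activin subunit Inhba 201, 210.2 and 270.4 against 113, 93.8 and 105 (difference -1.12). None of the 3 overlapped between genotypes, which held for 284 of all 285 genes that passed, and all 3 kept their call in every omission. The list median was -0.10.

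The actin cytoskeleton and focal adhesion list had 5 of 35 members lower and 1 higher, with 29 of 35 differences negative and a median of -0.37. Palladin (Palld), an actin crosslinker, measured 313, 431 and 424 in Cn-Ctl and 150.2, 101 and 103 in SM-Cn-/- (difference -1.73, SE 0.23, adjusted p = 0.000134 in limma). The integrin subunit Itga5 (-1.29), cytoplasmic actin Actb (-0.85), vinculin (Vcl, -0.70) and the tropomyosin Tpm4 (-0.61) were lower, and paxillin (Pxn, 0.72), a focal adhesion adaptor, was higher. Outside the list, filamin C (Flnc), an actin crosslinker of muscle, measured 1004, 1513 and 3217 against 254, 457 and 239 (difference -2.49, adjusted p = 0.00133), the controls being widely spread but all above the knockouts.

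Of the list members Palld alone kept its call in every omission. Itga5, Actb, Vcl, Tpm4 and Pxn were each lost without SM-Cn-/- replicate 2, SM-Cn-/- replicate 3 or Cn-Ctl replicate 2, and some without Cn-Ctl replicate 1, Cn-Ctl replicate 3 or SM-Cn-/- replicate 1 (highest adjusted p 0.14 to 0.215 in limma). Of 30 smooth muscle contractile genes 2 were lower, the Z-disc genes Ldb3 (-0.92) and Sorbs2 (-0.82), and the median was -0.25. Smooth muscle actin Acta2 measured 17580, 16940 and 15790 in Cn-Ctl and 13230, 10990 and 9982 in SM-Cn-/-, without overlap, and its difference of -0.56 did not pass (adjusted p = 0.432). Ldb3 was lost without Cn-Ctl replicate 2 and Sorbs2 in 5 omissions, all but that of SM-Cn-/- replicate 1 (highest adjusted p 0.0685 and 0.135).

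A CArG box, the SRF site, was found in the promoters of 6% of the genes lower in SM-Cn-/- with a sequence (9 genes, among them Vcl, Ldb3 and Dusp5), 1.75% of the higher genes and 1.61% of all genes tested. The promoters of Vcl (GRCm38.p6, chr14:20929148-20929447, plus strand) and of Dusp5, a phosphatase that inactivates ERK (GRCm38.p6, chr19:53528895-53529194, plus strand), are shown because they carry 1 and 2 boxes, in capitals. The palindromic cAMP response element TGACGTCA occurred in 6.67%, 1.75% and 3.32%, and the AP-1 site TGANTCA in 12%, 7.02% and 6.65%, of the same 3 sets. TATAAA, the core promoter box, occurred in 16%, 15.8% and 9.98%. The sets had 1.51, 1.32 and 1.27 promoters a gene, and the part of this in the shares was not tested. A match is only an occurrence of these letters on either strand.
Vcl promoter: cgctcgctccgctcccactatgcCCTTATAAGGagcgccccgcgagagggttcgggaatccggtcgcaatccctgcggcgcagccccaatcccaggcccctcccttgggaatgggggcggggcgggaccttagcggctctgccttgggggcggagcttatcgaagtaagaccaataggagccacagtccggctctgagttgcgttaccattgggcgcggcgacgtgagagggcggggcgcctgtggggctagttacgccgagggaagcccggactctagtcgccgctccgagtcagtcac
Dusp5 promoter: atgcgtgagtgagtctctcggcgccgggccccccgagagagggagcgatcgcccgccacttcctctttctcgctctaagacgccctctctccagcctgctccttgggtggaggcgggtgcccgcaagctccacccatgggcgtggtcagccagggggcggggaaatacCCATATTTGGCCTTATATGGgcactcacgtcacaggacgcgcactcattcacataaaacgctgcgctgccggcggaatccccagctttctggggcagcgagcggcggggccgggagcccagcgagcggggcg

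Among signalling genes, Hbegf, the EGF receptor ligand shed from muscle cells after Ang-II, measured 121, 229.9 and 372 in Cn-Ctl and 45.4, 37.0 and 41.5 in SM-Cn-/- (difference -2.39, SE 0.33, adjusted p = 0.000245 in limma). The knockout values were nearly equal, whereas the controls were widely spread above them. Rgs4, which shortens signalling through Gq-coupled receptors, measured 125, 141 and 116 against 42.0, 28.0 and 27.2 (difference -1.98, SE 0.21, adjusted p = 7.5e-06), and it was the single called member of 11 RGS genes. The MAP kinase feedback genes Dusp5 (-2.33) and Spry4 (-1.49), the EGF receptor inhibitor Errfi1 (-1.23), cyclooxygenase 2 (Ptgs2, -2.17) and the polyamine enzyme Odc1 (-1.08) were lower. Cardiac-type ryanodine receptor Ryr2 (-1.03), a calcium release channel, and the phosphodiesterase Pde3a (-1.01) were lower too.

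Hbegf, Rgs4 and Odc1 passed with each library left out. Dusp5, Spry4, Errfi1, Ptgs2, Ryr2 and Pde3a did not (highest adjusted p 0.086 to 0.251 in limma). Each was lost without SM-Cn-/- replicate 2, all except Ryr2 also without SM-Cn-/- replicate 3, and some without Cn-Ctl replicate 1, 2 or 3 or SM-Cn-/- replicate 1. Several inflammatory and metabolic lists had no called member at 6 h. Over all genes 1.98% passed, and no call in lists of these sizes is near that share. These were the NF-kB (17 genes, median -0.07), interferon-inducible (24, median 0.53), unfolded protein (26, median -0.02), glycolysis and hypoxia (24, median -0.04) and cholesterol lists (21, median -0.05), the renin-angiotensin genes (11), the connexins (5), 80 ribosomal proteins (median 0.11) and 81 oxidative phosphorylation subunits (median 0.15). The median of the interferon-inducible list was 0.69 in untreated aortas, 0.52 at 2 h and 0.50 at 24 h. Some members of these lists had differences of more than 1 without passing: the interferon-inducible GTPase Igtp was at 1.18 (adjusted p = 0.105) and the NF-kB feedback inhibitor Tnfaip3 at 1.14 (adjusted p = 0.106).

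Several genes of low signal were nearly absent from the knockout libraries. Stac, an adaptor of voltage-gated calcium channels, measured 10.9, 14.6 and 14.3 in Cn-Ctl and 0.688, 1.65 and 0.173 in SM-Cn-/- (difference -3.51, SE 0.44, adjusted p = 8.69e-05 in limma), the last value standing for no read. Sphkap, a protein kinase A anchoring protein, measured 7.54, 8.51 and 5.80 against 0.0626, 0.215 and 0.868 (difference -3.23, adjusted p = 0.00133). The organic cation transporter Slc22a2 measured 10.2, 9.13 and 8.62 against 0.438, 2.08 and 0.868 (difference -2.71, adjusted p = 0.00449). Lack of overlap was a condition for naming these 3 genes, and each passed in every omission. Slc22a2 was at 8.96 to 9.76 in untreated Cn-Ctl and 0.112 to 2.91 in untreated SM-Cn-/-, where its difference of -2.71 did not pass (adjusted p = 0.147). Its neighbour Slc22a3 (-2.35) and the tendon factor Scx (-2.42) also passed but were lost without SM-Cn-/- replicate 2, SM-Cn-/- replicate 3 or Cn-Ctl replicate 3, Scx also without Cn-Ctl replicate 2 (highest adjusted p 0.169 and 0.144). At these levels a few reads and the added 0.5 set the fitted size of a difference.

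Cytokine and stress signalling lists held scattered members, where 1.44% of all genes passed as lower. So few calls say little about a list. Of 18 STAT3 and SOCS3 genes the oncostatin M receptor Osmr (-0.89) and the interleukin 1 receptor Il1r1 (-0.85) were lower, of 20 glucocorticoid-responsive genes Errfi1 and the kinase Sgk1 (-0.98), around a list median of 0.24, and of 7 metallothionein and zinc genes the importer Slc39a14 (-1.14). Of 19 NRF2 redox genes sulfiredoxin (Srxn1, -1.25) and extracellular superoxide dismutase (Sod3, -0.73) were lower, and of 23 cell cycle genes the replicative helicase subunit Mcm6 (-1.22). Slc39a14 and Srxn1 passed in every omission. Osmr, Il1r1, Sgk1, Sod3 and Mcm6 did not, their highest adjusted p in limma being 0.0673 to 0.241 in omissions that included SM-Cn-/- replicate 2 or 3 for each.

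**Figure D4:**
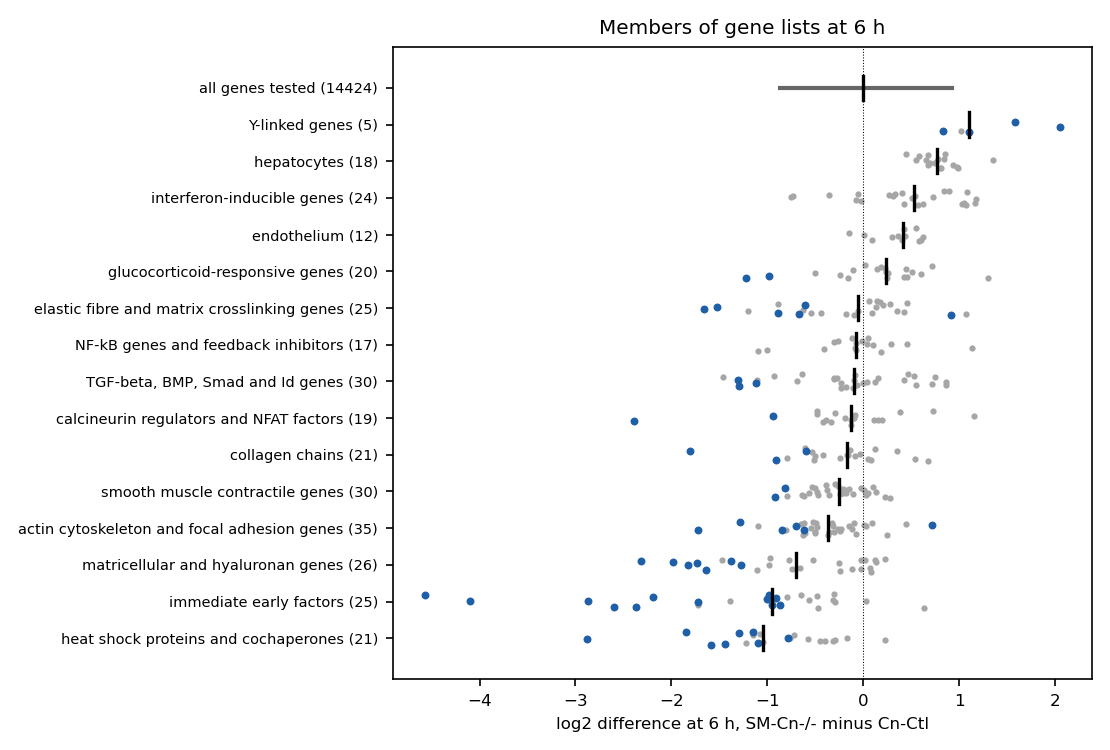
Log2 difference at 6 h (SM-Cn-/- minus Cn-Ctl) of every measured member of 15 gene lists, in rows ordered by median, with the number of genes in brackets. Blue points passed the test, grey points did not, black ticks are medians, and the grey bar at the top spans the 5th to 95th percentile of all 14424 genes. Heat shock, immediate early and matricellular genes lay farthest to the left, at medians of -1.05, -0.95 and -0.70.

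Of the pathway lists, only the actin (Pxn), elastic fibre (Mfap5), cytokine (Csf1) and circadian (Dbp) lists held a gene that passed as higher in SM-Cn-/-, 1 each. Outside them, Slc25a33, a mitochondrial pyrimidine nucleotide carrier, measured 12.8, 12.1 and 14.3 in Cn-Ctl and 42.7, 42.9 and 32.8 in SM-Cn-/- (difference 1.55, SE 0.23, adjusted p = 0.000521 in limma). Controls and knockouts each formed a tight set well apart. Ppp1r1b (DARPP-32), an inhibitor of protein phosphatase 1, measured 8.29, 3.51 and 1.72 against 31.7, 22 and 26.5 (difference 2.65, adjusted p = 0.00185). Titin-cap (Tcap), a sarcomeric protein, measured 48.0, 25.7 and 39.3 against 124, 199 and 208 (difference 2.23, adjusted p = 0.00584), while the 14 striated and cardiac muscle markers summed to 325, 25.9 and 74.3 in Cn-Ctl and 47.0, 147 and 181 in SM-Cn-/- and none of them passed. The macrophage growth factor Csf1 measured 103, 118 and 81.0 against 167, 192 and 184 (difference 0.86, adjusted p = 0.0213), and the circadian output gene Dbp 68.6, 48.5 and 62.9 against 143, 173 and 156 (difference 1.40, adjusted p = 0.0358).

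Slc25a33, Ppp1r1b, Lrtm2 (2.92), Slc6a7 (1.94) and Ttc12 (1.81) kept their calls in every omission. Tcap was lost without Cn-Ctl replicate 2, Csf1 without SM-Cn-/- replicate 2 or 3 or Cn-Ctl replicate 3, and Dbp in all omissions but that of SM-Cn-/- replicate 1 (highest adjusted p 0.0965 for Csf1 and 0.157 for Dbp in limma). Dbp overlaps Sphk2 on the opposite strand. Gm44503 had no read in any Cn-Ctl library and measured 6.57, 9.67 and 1.91 in SM-Cn-/-, and its call also held in every omission, but it shares exons with Ccpg1 and Dyx1c1 on the same strand and is therefore uncertain.

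Of the Y-linked genes, 4 were higher in every SM-Cn-/- library than in every Cn-Ctl library. Over all genes tested 6.63% were, and 0.534% passed as higher. Uty measured 15.4, 16.3 and 11.4 in Cn-Ctl and 58.1, 55.5 and 69.2 in SM-Cn-/- (difference 2.06, SE 0.22, adjusted p = 7.5e-06 in limma), and Eif2s3y 78.1, 62.5 and 84.8 against 189, 226 and 265 (difference 1.58, adjusted p = 7.5e-06). Kdm5d (1.11) and Ddx3y (0.84) also passed, so that 4 of the 5 measured Y-linked genes of a list drawn up after the values had been seen were higher. Uty also passed before Ang-II, at 17.1 to 19.3 in untreated Cn-Ctl and 45.5 to 69.5 in untreated SM-Cn-/- (difference 1.51, adjusted p = 0.0242), and at 24 h (2.21, adjusted p = 2.36e-05). The Cre transgene lies on the same chromosome, and its part in this difference was not tested. Kdm5d was lost without SM-Cn-/- replicate 2 or Cn-Ctl replicate 3 and Ddx3y without SM-Cn-/- replicate 3 (highest adjusted p 0.0754 to 0.166).

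Few genes passed between the genotypes before Ang-II: 2 genes (0.0139%), P3h2 as lower and Uty as higher, passed in untreated aortas, and 757 genes (5.25%) had an unadjusted p under 0.05. With 2 untreated Cn-Ctl libraries this count does not show that the other genes were equal. By the study's methods, another untreated Cn-Ctl replicate was discarded because it deviated from these in a principal component analysis. The effect of that choice on the contrasts with untreated aortas was not tested. Untreated list medians were 0.07 for immediate early, -0.05 for heat shock and 0.01 for matricellular genes. They were 0.69 for interferon-inducible and 0.83 for Y-linked genes. P3h2 was at 61.4 to 66.8 in untreated Cn-Ctl and 16.7 to 25.7 in untreated SM-Cn-/- (difference -1.60, adjusted p = 0.00911 in limma), and the change of its difference from there to 6 h was -1.04 (adjusted p = 0.433). At 2 h of Ang-II 534 genes (3.7%) passed, 429 of them lower (2.97%) and 105 higher (0.728%), and at 24 h 713 (4.94%), 386 lower (2.68%) and 327 higher (2.27%).

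Genes that separated the genotypes at 2 h mostly kept their sign at 6 h, in other libraries. Of the 429 lower at 2 h (median -1.15), 409 (95.3%) were negative at 6 h with a median of -0.64, and 133 passed as lower, which is 31% of the 2 h list and 63.9% of the 208. Of the 105 higher at 2 h (median 1.07), 97 (92.4%) were positive at 6 h with a median of 0.64, and 24 passed as higher, 22.9% of the 2 h list and 31.2% of the 77. Over all genes tested the median at 6 h was -0.005, and 1.44% passed as lower and 0.534% as higher. No gene passed in opposite directions.

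At 2 h 19 of the 21 chaperones and 22 of the 25 early factors had passed, against 8 and 12 at 6 h. Over all genes tested 3.7% passed at 2 h and 1.98% at 6 h. Bag3, an HSP70 cochaperone, was the single gene whose genotype difference changed between 2 h and 6 h past the test (0.00693% of genes; 934, or 6.48%, had an unadjusted p under 0.05, and edgeR called 0 and DESeq2 16). Bag3 was at 570 to 742 in Cn-Ctl and 128 to 170.4 in SM-Cn-/- at 2 h (difference -2.07), and at 117, 118 and 175 in Cn-Ctl and 109, 109 and 88.7 in SM-Cn-/- at 6 h (difference -0.40, adjusted p = 0.337 in limma). The control libraries came down almost to the knockout level. The change in its difference was 1.67 (SE 0.26, adjusted p = 0.0349), and no gene passed for this change in 9 of the 12 omissions of 1 library from the 2 h and 6 h groups. Hspa1b went from 2310 to 3295 in Cn-Ctl at 2 h to 151, 158 and 289 at 6 h, with 71.7 to 188 in SM-Cn-/- at 2 h and 79.8, 111 and 86.9 at 6 h (change 3.42, adjusted p = 0.0522).

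**Figure D5:**
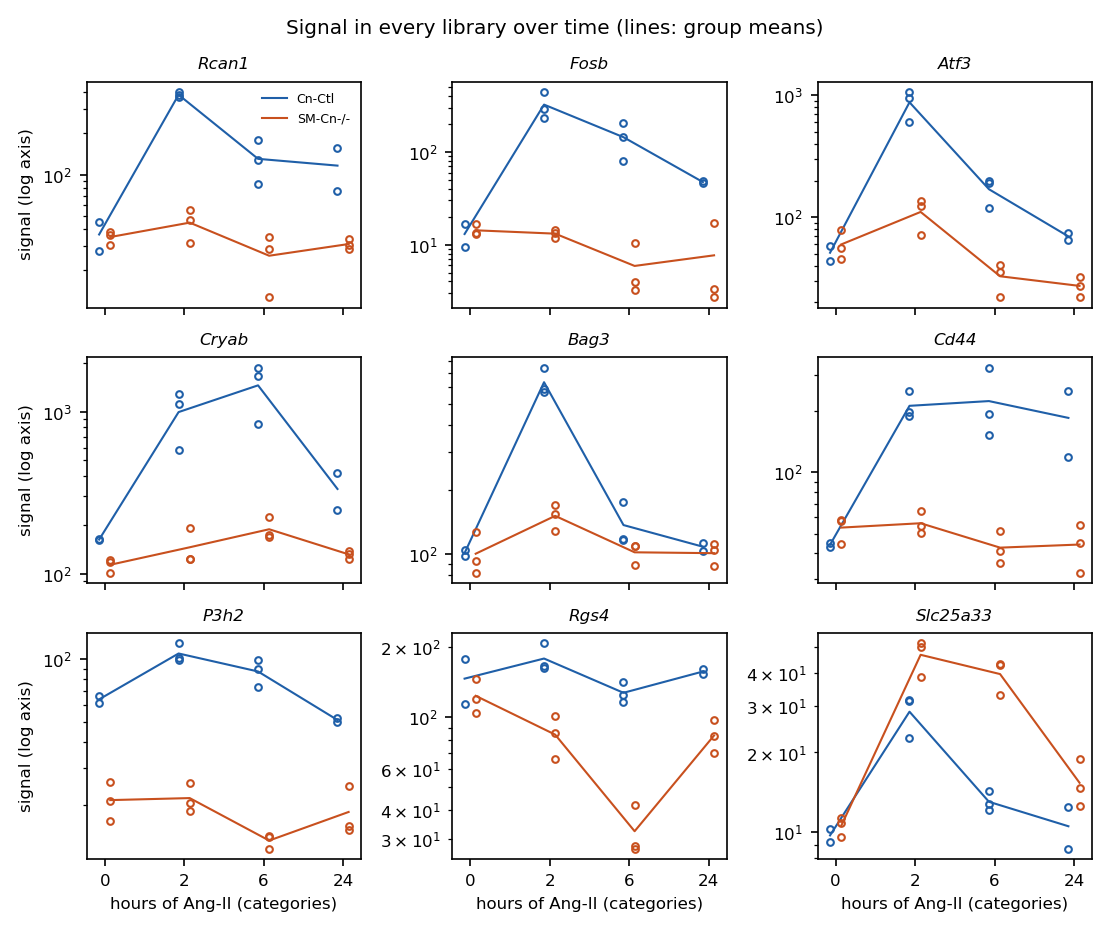
Signal (log axis) of 9 genes in every library of the genotype experiment in untreated aortas (0) and after 2, 6 and 24 h of Ang-II, Cn-Ctl in blue and SM-Cn-/- in orange, with lines through group means. Rcan1, Fosb, Atf3 and Bag3 peaked at 2 h in Cn-Ctl, Cryab at 6 h, P3h2 was apart at every time, Rgs4 was lowest at 6 h in SM-Cn-/-, and Slc25a33 stayed high in SM-Cn-/- at 6 h.

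Between 6 h and untreated aortas the genotype difference itself changed past the test for 9 genes (0.0624%; 873, or 6.05%, had an unadjusted p under 0.05), all towards lower levels in SM-Cn-/-. The count was 0 without SM-Cn-/- replicate 3 at 6 h or SM-Cn-/- untreated replicate 1, 2 without Cn-Ctl replicate 2 or 3 at 6 h, 4 without SM-Cn-/- replicate 2 at 6 h or SM-Cn-/- untreated replicate 2, 19 without SM-Cn-/- replicate 1 at 6 h, 5 with edgeR and 42 with DESeq2. Among them were Fosb, Cd44, Atf3, Cryab, Dnaja4, Rgs4, Cyr61 and the calcium-dependent membrane protein Anxa2. Apart from Rgs4, each of these rose past the test in Cn-Ctl, by 1.36 (Anxa2) to 3.37 (Fosb) on the log2 scale, and did not pass in SM-Cn-/-. Both changes are parts of the term by which the genes were selected, so this pattern is not separate support. A change that did not pass does not show that there was none. Cryab was at 161 to 164 in untreated Cn-Ctl and 101 to 122 in untreated SM-Cn-/-, against 835 to 1876 and 168 to 222 at 6 h. Rgs4 did not change past the test in Cn-Ctl (-0.17, adjusted p = 0.786) and fell in SM-Cn-/- from 105 to 146 untreated to 27.2 to 42.0 at 6 h (-1.93, adjusted p = 1.37e-05). No gene passed for a change between 6 h and 24 h in limma (1233, or 8.55%, had an unadjusted p under 0.05, and DESeq2 called 48).

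Set against untreated aortas of the same genotype, 572 genes (3.97%) passed in Cn-Ctl at 6 h, of which 392 rose (2.72% of genes tested) and 180 fell (1.25%). In SM-Cn-/- 338 genes (2.34%) passed, and 216 of these rose (1.5%) while 122 fell (0.846%). The SM-Cn-/- count was 112 without untreated replicate 3, 219 without untreated replicate 1, 116 without 6 h replicate 2 and 225 without 6 h replicate 3. Without 6 h replicate 1 it was 449, and more of these fell (237) than rose (212). The Cn-Ctl count was 372 without 6 h replicate 3. These contrasts use the same 6 h libraries as the genotype comparison, so their values are given side by side only. The 208 genes lower in SM-Cn-/- had a median of 0.77 in Cn-Ctl, with 97 called higher and 0 lower than untreated, and of -0.02 in SM-Cn-/-, with 9 called in each direction. The 77 higher genes had a median of -0.81 in Cn-Ctl, 26 of them called lower, and of 0.16 in SM-Cn-/-, 10 of them called higher and 1 lower. Slc25a33 was at 9.22 to 10.3 and 9.57 to 11.3 in the untreated genotypes, at 22.6 to 31.6 in Cn-Ctl and 38.5 to 51.5 in SM-Cn-/- at 2 h, and stayed up at 6 h in SM-Cn-/- alone by these values, although the change of its difference from untreated did not pass (1.44, adjusted p = 0.241 in limma).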

How the data were processed

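Aortic mRNA libraries, each from a pool of 3 aortas, were sequenced on an Illumina Genome Analyzer IIx. According to the submitters' processing notes, the authors used Bowtie 0.12.7 and RSEM 1.16 with GRCm38. The deposited signal is 1 normalised value per gene and library, equal to (reads + 0.5) divided by a scaled library size, on a scale close to RPM. Whole reads were recovered from 100% of values (tolerance 0.02 reads), and the depth given in the report is their sum per library. Intervals or errors cover the spread between libraries only.

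The 14424 protein-coding genes of the 17402 listed (GENCODE annotation of GRCm38 for biotype and position) were fitted over all 22 libraries of the genotype experiment with limma 3.58.1 in R 4.3.3 (group means, trended empirical Bayes) on log2(signal + 0.5), with Benjamini-Hochberg adjustment over all genes and a threshold of 0.05. Folds are on that scale and understate changes of low genes. Per the labels each replicate is its own pool of aortas, and no pair of 6 h libraries of 1 group was alike within sampling noise. An exact permutation test of 3 against 3 libraries cannot go below p = 0.1 and was not used.

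Genes named were the Cn subunits and Rcan1, the 15 largest differences in each direction and the 10 smallest p among called genes with a mean signal of at least 5 and no overlap, called members of the gene lists (or the up to 4 largest differences where none passed), the 10 largest differences at 2 h, and genes called in a change between times. The members and lists were chosen with earlier results of these data known, and the hepatocyte and Y-linked lists, the promoters shown and all motifs but GGAAA were chosen after the values were seen. A gene the rule covers is not reported here.

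Alternatives were other pseudocounts, filters and scalings, edgeR 4.0.16 and DESeq2 1.42.0 on recovered reads, fits over the 6 libraries alone, replicate blocks, leaving out each library, and, added after seeing the data, hepatocyte signal as a covariate and subsets of libraries. Scripts were tested on simulated data. Promoters came from the RefSeq table for GRCm38.p6. The table held no columns of unmapped libraries.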

Additional observations from a re-analysis of the deposited data

Results flagged for a closer look

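The genotype difference itself changed between times past the test for the following genes, each by the interaction term of limma with Benjamini-Hochberg adjustment. Bag3, an HSP70 cochaperone, had a genotype difference of -2.07 at 2 h that shrank to -0.40 at 6 h, a change of 1.67 (SE 0.26, adjusted p = 0.0349). From untreated aortas to 6 h the difference of Fosb changed by -4.74 (SE 0.73, adjusted p = 0.0148), that of Cd44 by -2.58 (adjusted p = 0.0148) and that of Atf3 by -2.57 (adjusted p = 0.0216). The changes of Cryab (-2.36), Anxa2 (-1.28), Dnaja4 (-1.61) and Rgs4 (-1.76) shared an adjusted p of 0.0278, and Cyr61 changed by -1.93 (adjusted p = 0.0425). At 6 h the 3 SM-Cn-/- libraries lay below the 3 Cn-Ctl ones for each of these genes, and the difference at 6 h itself passed for all but Bag3. No gene passed for a change from untreated aortas without SM-Cn-/- replicate 3 at 6 h or without SM-Cn-/- untreated replicate 1, and none for a change from 2 h in 9 of 12 omissions. No cause of these changes was tested.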

How the results depend on the processing

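The 285 calls at 6 h stayed within 1.5 times under other pseudocounts, filters, scalings, robust hyperparameters, edgeR (237) and the replicate block over all 22 libraries (361). They became 494 with DESeq2, 45 in a fit of the 6 libraries alone and 172 with a 2-fold limit, and 119 to 523 as each library was left out. Settings added after seeing the data gave 77 calls without replicate 3 of both genotypes, 502 with the hepatocyte covariate, and 7 and 355 within the libraries low and high in liver transcripts. The share of lower calls was 73%, but 65.4% with DESeq2 and 50.1% within the libraries high in liver transcripts, and no scaling moved the median of all genes by over 0.1.

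Of the named genes, 96 passed. This became 29 in the fit of the 6 libraries, 35 without replicate 3 of both genotypes, 7 and 59 in the libraries low and high in liver transcripts, and 50 to 92 as each library was left out. Over all named genes and alternatives 4326 values kept their side of the threshold, 87 became significant and 532 lost significance. No call changed sign, which lack of overlap fixed for omissions and subsets of libraries in every gene but Pde3a. Medians of the lists moved by over the spread between libraries in 94 cases and by less in 892, and 40 to 44 of the 47 lists kept the sign of their median as each library was left out (32 and 38 in the libraries low and high in liver transcripts).

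The change of the difference from 2 h to 6 h had 1 call, which became 3 with a pseudocount of 1, 0 with quantile normalization, 0 with edgeR, 16 with DESeq2 and 0 to 2 over the omissions. That from untreated aortas had 9, which became 5 with edgeR, 42 with DESeq2 and 0 to 19 over the omissions, 0 without SM-Cn-/- replicate 3 at 6 h or SM-Cn-/- untreated replicate 1. That to 24 h had 0, with 48 in DESeq2 and 0 to 5 over the omissions. The 572 genes of Cn-Ctl against untreated became 947 with DESeq2 and 372 to 628 over the omissions. The 338 of SM-Cn-/- became 644 with DESeq2 and 112 to 449, lowest without SM-Cn-/- untreated replicate 3 and highest without SM-Cn-/- replicate 1 at 6 h, where 237 fell and 212 rose. The 157 genes called in the same direction at 2 h and at 6 h became 244 with DESeq2 and 91 to 168. The cause of these shifts was not tested. Groups of 2 libraries were not reduced further.

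Deviations of libraries with the same replicate number correlated at 0.32, -0.13 and 0.41 over 11061 genes. Those of unlike number ranged from -0.53 to 0.45, so these values cannot tell whether the numbers pair the libraries. The calls at 6 h were 361 with a replicate block over all 22 libraries, against 285 without it. In fits of the 6 libraries they were 95 with the block and 45 without. With the replicate block over all 22 libraries the change from 2 h to 6 h had 3 calls. With the block over the 6 libraries 45 of the named genes passed.

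Depth limits low genes: in the shallowest library 1 read is worth a signal of 0.347, and 3 reads 1.21.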
